A study of Mus musculus with 58 samples.

Results

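Translation initiation and elongation factors are the soluble proteins that start and drive protein synthesis on the ribosome. In mouse gene names their symbols start with Eif or Eef. The members described here were taken by symbol: 80 symbols in the deposited tables start that way, and 10 pseudogenes, 4 Eif2ak kinases and the Y-linked Eif2s3y were left out, leaving 65. Of these, 63 were present in all 6 count tables, among 18350 genes that all the tables share. Eif2c5 and Eif4e1b were not in all 6 and are not described.

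The samples were striatum of adult littermate mice of 2 lines. Mice of the 3g line, 3g del/+, carry a premature stop in a single copy of each of Taok2, Sez6l2 and Mvp, and 16p11.2 del/+ mice lack a single copy of the syntenic 16p11.2 interval, which holds these 3 genes. Each line has its own wt littermates, and the labels give strain B6129S for all animals. By the methods, however, the 3g line was made with C57BL/6J mice, by Cas9 editing of pronuclear-stage embryos. The paper found the edits by Sanger sequencing in striatum, cortex, cerebellum, ear and tail. RNA-seq covered 4 animals of each line, genotype and sex (32 libraries), and other male mice gave lysate RNA and ribosome footprints from the same lysate (3 del/+ and 3 wt of the 3g line, 3 del/+ and 4 wt of the 16p11.2 line). These animals are numbered here from 1 within line and genotype, in the order of their label numbers.

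Total counts were 11711099 to 65529807 in RNA-seq, 15102576 to 19122488 in lysate RNA and 342052 to 678130 in footprints. The median member had 2010.5 counts in a RNA-seq library, 480 in a lysate RNA library and 12 in a footprint library, where 27 of the 63 members had a median under 10, so that footprint values of single members are imprecise. In RNA-seq, Sez6l2 ran from 121 to 158 CPM in 16p11.2 del/+ males and from 278 to 380 CPM in their wt littermates. In 3g males it ran from 200.3 to 233 against 285 to 350 CPM, so its groups were separate in both lines. Taok2 and Mvp were separate in 16p11.2 males but overlapped in 3g males. There Taok2 ran from 165.9 to 204 CPM in del/+ and 185.5 to 189.6 CPM in wt. Mvp ran from 5.49 to 7.69 CPM in 3g del/+ males and 7.5 to 8.97 CPM in 3g wt males. Striatal projection neuron markers (8 of 8 detected) summed to between 3576 and 6588 CPM in RNA-seq. Cortical excitatory neuron markers (5 of 5 detected) summed to between 36.1 and 1254 CPM.

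Not all libraries lay with the others of their label. Each RNA-seq library was scored along the axis that separates wt females by line, over 11385 genes called between them, so that a mean 3g wt female scores 0 and a mean 16p11.2 wt female scores 1. By this score 3g wt male 17 stood at 0.888, while its 15 companions of the 3g line ranged from -0.0814 to 0.165. In the other direction, 16p11.2 del/+ male 4 stood at 0.202, with its 15 companions from 0.844 to 1.21. Scored on the 51 members among those genes, the values of these libraries were 0.965 and -0.00837. The axis also holds any difference in batch or dissection between the lines, and its part was not tested. In 16p11.2 del/+ male 4, Taok2, Sez6l2 and Mvp were at 86.5, 158 and 3.76 CPM. The 3g del/+ males had 165.9 to 204, 200.3 to 233 and 5.49 to 7.69 CPM. Of the 16 libraries labelled female, 1 (16p11.2 del/+ female 1) expressed Ddx3y above 10 CPM. It had Xist at 0.445 CPM and Eif2s3y at 28 CPM, a male pattern. The other 16p11.2 del/+ females had Xist at 308 to 881 CPM and Eif2s3y at 0 CPM. In the main fits 3g wt male 17, 16p11.2 del/+ male 4 and 16p11.2 del/+ female 1 stay under their labels. Most counts, medians and named fold changes that leaving out these libraries moved are given below without them too. The shares and fold changes of Eif3j1 and Eif3j2 are given with them only.

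Initiation begins when eIF4F, made of the cap-binding protein eIF4E, the scaffold eIF4G and the helicase eIF4A, prepares an mRNA. The eIF2 complex brings the initiator tRNA, eIF2B recharges eIF2 with GTP, eIF3 organises the small subunit, and eIF1 and eIF1A control start codon choice. In elongation, eEF1A delivers aminoacyl-tRNA, the eEF1B complex (Eef1b2, Eef1d, Eef1g) exchanges its nucleotide, and eEF2 moves the ribosome along. Many mRNAs of the translation machinery start with a C followed by a run of pyrimidines, the 5′ terminal oligopyrimidine motif, through which growth signalling controls their translation.

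Because of that motif, the annotated starts of the members were read from RefSeq (GRCm38.p6), where 48 of the 63 members have a promoter entry. The windows below are 30 bases long, from 10 bases before the start base, with capitals for a run that opens with a C lying within 3 bases of the start and goes on with C or T for at least 5 bases in all. Eef1a1 (chr9:78481705-78481734, minus strand), Eif2s3x (chrX:94212632-94212661, minus), Eif3f (chr7:108934405-108934434, plus) and Eif4g1 (chr16:20672717-20672746, plus) hold such a run. Eef1a2 (chr2:181156996-181157025, minus) and Eif1 (chr11:100319939-100319968, plus), shown as relatives or counterparts in the results, do not.
Eef1a1: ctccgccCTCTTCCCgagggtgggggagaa
Eif2s3x: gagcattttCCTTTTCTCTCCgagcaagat
Eif3f: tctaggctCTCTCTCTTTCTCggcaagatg
Eif4g1: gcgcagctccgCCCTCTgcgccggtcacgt
Eef1a2: cctggtctgcgttctcgctcactggttctc
Eif1: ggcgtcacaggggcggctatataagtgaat
Such a run was found at 8 of the 62 promoters of members, belonging to 8 of the 48 genes, and at 11.5% of all 32851 promoters of this length. Whether striatal transcripts start at the annotated base was not tested. A run here, in Eef1a1 for example, therefore need not open the mRNA, and a member without a run, such as Eif1, need not lack the motif.

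The sharpest measurements on the members came from wt animals, as footprints per lysate RNA. This ratio of footprint CPM to lysate RNA CPM in the same animals is a relative measure of how many ribosomes a transcript carries. On the log2 scale of the fit, 0 is the typical gene. Which part of each gene was counted is not given in the sources used here, so the ratio also carries the coding share of the transcript. In the plot of fitted ratios by role, most members lie left of 0. The median was -0.76 in 3g wt animals and -0.47 in 16p11.2 wt animals, against -0.01 and -0.03 over all genes tested. Of 61 members tested, 28 were lower and 7 higher at an adjusted p under 0.05 in each line (edgeR's quasi-likelihood test, libraries not paired by animal). Over all genes 23.7% were called lower and 20.6% higher in the 3g line, with 25.2% and 21.4% in the 16p11.2 line. Below 0 lay 43 of 61 members in each line, against 50.3% and 51.2% of all genes. Both directions together, edgeR called 35 members in each line (44.3% and 46.6% of all genes) and DESeq2 37 and 35 (47.4% and 49%). Eef1akmt3 and Eef1akmt4 were too low to test. A member can pass the filter through lysate RNA alone, so low footprint counts do not by themselves remove it. Of the 35 called in each line, 28 in the 3g line and 29 in the 16p11.2 line were called whichever animal was left out. Those that lost the call in some are named below, beside Eif5b in the 3g line and Eefsec, Eif1a and Eif3m in the 16p11.2 line.

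The lines gave like orders. Called lower in both lines were 27 members and called higher in both were 5, while 23 were called in neither and 0 in opposite directions. How many of all genes were called in both lines was not counted. These counts, and those by role below, therefore do not show an agreement particular to the members. Across 60 members, Pearson's r between the lines was 0.91 without Eif4ebp3, which had no footprint in any 3g wt animal, and 0.70 with it. This is a description across genes, which share their libraries and counting. Of the 34 members with a mean of 10 or more footprints per wt library, 17 were lower and 3 higher in both lines. Of the 27 members under 10 footprints, 10 were lower and 2 higher.

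**Figure D1:**
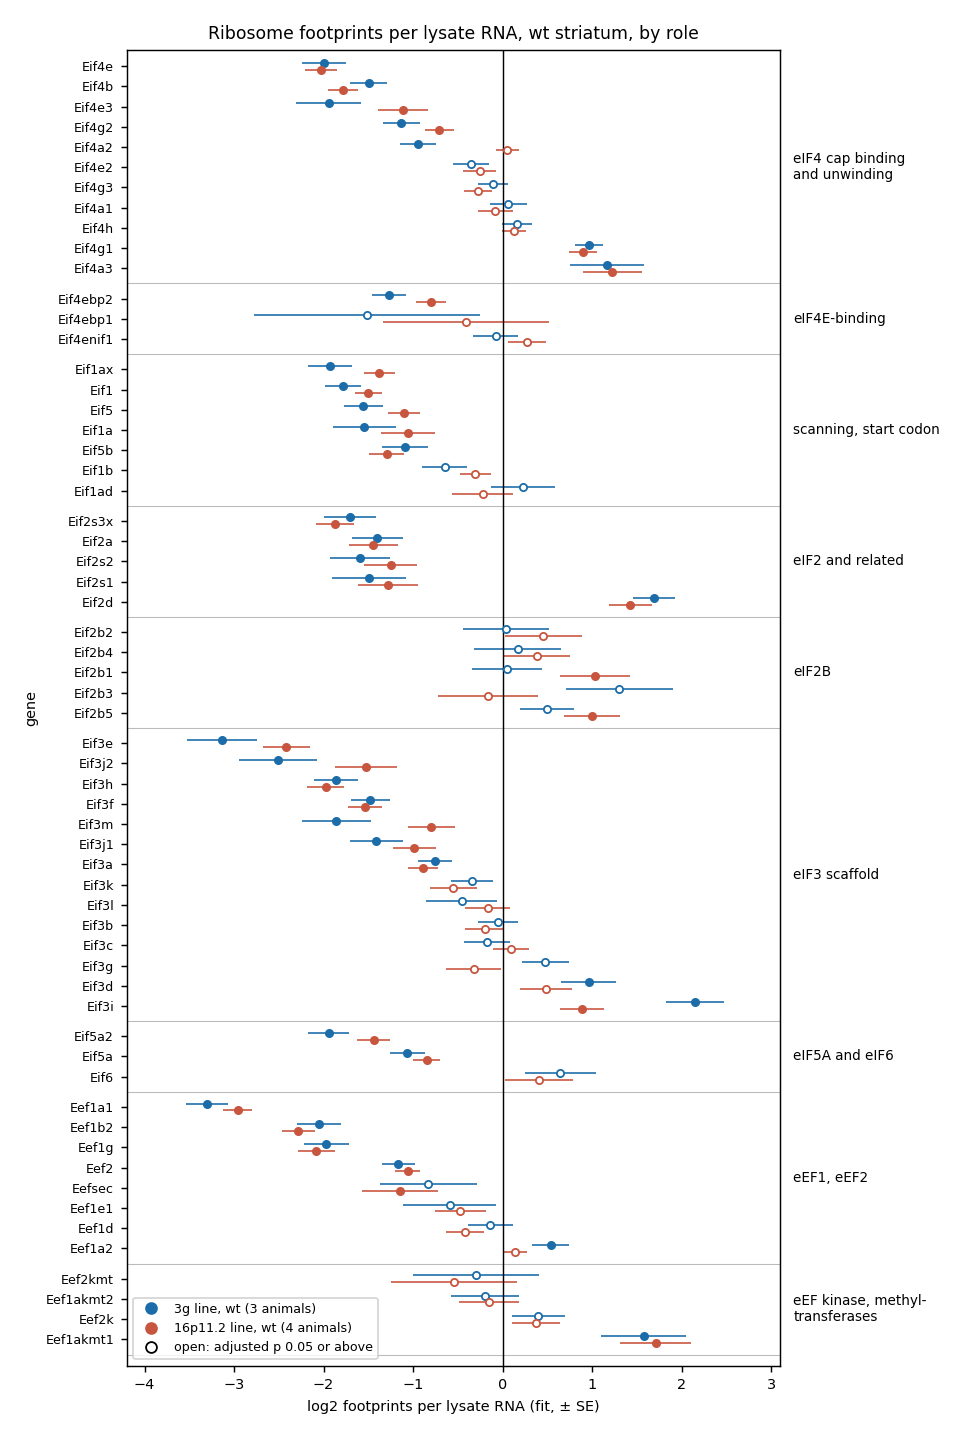
Fitted log2 footprints per lysate RNA (x axis, ± SE) for 60 members (y axis, grouped by role) in wt animals of the 3g line (blue, 3 animals) and the 16p11.2 line (red, 4 animals). Filled points have an adjusted p under 0.05. Eef1a1 and Eif3e lie farthest left, and Eif3i, Eif2d and Eef1akmt1 farthest right. Eif4ebp3, with 0 footprints in the 3g wt animals, is not drawn.

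Among the elongation factors, Eef1a1, the eEF1A isoform of most tissues, had the lowest well-measured ratio. Its ratio was 0.0795, 0.127 and 0.0944 in 3g wt animals 1, 2 and 3, and 0.133, 0.117, 0.135 and 0.13 in 16p11.2 wt animals 1 to 4. In the 3g animals these rest on 149 footprints in all, in the 16p11.2 animals on 277. All 7 animals were thus far below a ratio of 1. The fitted log2 value was -3.31 ± 0.24 (SE; adjusted p = 4e-07) in the 3g line and -2.96 ± 0.16 (adjusted p = 1.08e-11) in the 16p11.2 line, both from edgeR. Only 1.1% and 0.9% of the genes tested lay at or below it.

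Eef1a2, the eEF1A isoform that neurons and muscle use, lay on the other side. Its ratio was 1.67, 1.56 and 1.1 in the 3g animals and 1.1, 1.02, 1.11 and 1.15 in the 16p11.2 animals. Its log2 value was 0.54 ± 0.21 (adjusted p = 0.0484 by edgeR) in the 3g line and 0.14 ± 0.13 (adjusted p = 0.42) in the 16p11.2 line. The call in the 3g line was lost without any 1 of the 3 animals, with no filter on low counts, and with animal as a block (edgeR adjusted p = 0.0567). Within each animal, Eef1a2 exceeded Eef1a1 by between 3.04 and 4.39 on the log2 scale. Processed copies of Eef1a1 in the genome can share its short reads, and how such reads were counted is not given in the sources used here.

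The partners of eEF1A in nucleotide exchange were split. Eef1b2 (log2 -2.05 ± 0.25 and -2.28 ± 0.18 in the 3g and 16p11.2 lines) and Eef1g (-1.97 ± 0.25 and -2.08 ± 0.20) were lower in both lines. Eef1d, the third subunit, gave -0.14 ± 0.25 and -0.42 ± 0.22 and passed in neither. Eef2, the translocase, was lower in both, with ratios of 0.433, 0.457 and 0.448 in the 3g animals and 0.592, 0.46, 0.427 and 0.453 in the 16p11.2 animals. Its log2 values were -1.16 ± 0.18 and -1.06 ± 0.14 (adjusted p = 0.000192 and 4.37e-06 by edgeR). Eef2k, the kinase that inhibits eEF2, gave 0.40 ± 0.30 and 0.37 ± 0.27, and passed in neither line. Of the lysine methyltransferases of eEF1A, Eef1akmt1 was higher in both (1.58 ± 0.47 and 1.71 ± 0.40), on 19 and 24 footprints in all. Leaving out 3g wt animal 1 or 2 ended its call in that line, and without animal 2 it was at 0.96.

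Among the 5 members of the eIF2 group all were called in both lines. The 3 subunits of eIF2 itself were lower: Eif2s1, the alpha subunit whose phosphorylation slows initiation, at -1.49 ± 0.41 and -1.28 ± 0.33, Eif2s2 (beta) at -1.59 ± 0.34 and -1.25 ± 0.30, and the X-linked Eif2s3x (gamma) at -1.70 ± 0.29 and -1.88 ± 0.21. Eif2a, an alternative initiator tRNA carrier, was lower too, at -1.40 ± 0.28 and -1.44 ± 0.27. Eif2d, which can place tRNA on the ribosome without GTP, was higher in all 7 animals, with ratios of 3.98, 2.98 and 2.78 in the 3g line and 2.86, 2.85, 2.43 and 2.75 in the 16p11.2 line. Its log2 values were 1.69 ± 0.24 and 1.43 ± 0.24 (adjusted p = 8.1e-05 and 5.5e-05 by edgeR). The call of Eif2s1 in the 3g line was lost without wt animal 1 or 2, and its 9 footprints there are few.

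Of the 5 eIF2B subunits, 0 were called lower in either line, where 23.7% and 25.2% of all genes were. Among only 5 members, a count of 0 is not far from these shares. Each subunit had 12 to 28 footprints in all in the 3g wt animals and 8 to 38 in the 16p11.2 wt animals. The median over the group was 0.54 for the mean of both lines. Eif2b3 gave 1.30 ± 0.60 and -0.16 ± 0.56 and passed in neither. Eif2b1 (1.03 ± 0.39) and the catalytic Eif2b5 (1.00 ± 0.31) were called higher in the 16p11.2 line, and in the 3g line they gave 0.05 ± 0.39 and 0.50 ± 0.30. The ratios of Eif2b1 were 3.35, 4.19, 0.434 and 1.18 in 16p11.2 wt animals 1 to 4, so that animal 3 lay below 1. Leaving out each animal gave log2 values of 0.525 to 1.38 for Eif2b1. The calls of Eif2b1 and Eif2b5 were both lost without wt animal 1 or 2. The difference between the lines was not tested.

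The scanning factors were mostly low. Eif1, Eif1a, Eif1ax, Eif5 and Eif5b were lower in both lines, 5 of the 7 in this group. Eif1, which guards start codon choice, had ratios of 0.272, 0.362 and 0.237 in the 3g animals and 0.376, 0.325, 0.344 and 0.371 in the 16p11.2 animals. Its log2 values were -1.78 ± 0.20 and -1.5 ± 0.15 (adjusted p = 1.55e-05 and 9e-08 by edgeR). Eif1b, its closest relative, gave -0.65 ± 0.25 and -0.30 ± 0.17 and passed in neither, and it exceeded Eif1 in 7 of 7 animals, by 0.70 to 1.46 on the log2 scale. Eif5, the GTPase activator of eIF2, was at -1.55 ± 0.21 and -1.10 ± 0.18.

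In the eIF4 group, 4 of 11 were lower in both lines, 2 were higher in both and 1 was lower in the 3g line alone. The cap-binding protein Eif4e had ratios of 0.119, 0.289 and 0.349 in the 3g animals and 0.214, 0.283, 0.223 and 0.253 in the 16p11.2 animals (log2 -2.0 ± 0.25 and -2.03 ± 0.18, edgeR adjusted p = 3.56e-05 and 2e-08). Its homologue Eif4e2, which binds caps without assembling eIF4F in the usual way, gave -0.35 ± 0.20 and -0.26 ± 0.19 and passed in neither. Eif4g1, the main scaffold, was higher, at 0.97 ± 0.16 and 0.90 ± 0.16. Eif4g2, a scaffold that lacks the site for eIF4E, was lower, at -1.13 ± 0.21 and -0.71 ± 0.16, and Eif4g1 exceeded it in 7 of 7 animals by 1.28 to 2.37.

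The helicases differed between themselves. Eif4a3, which works in the exon junction complex, was higher at 1.16 ± 0.41 and 1.23 ± 0.33. Its call in the 3g line was lost without any 1 of the 3 animals and with animal as a block (edgeR adjusted p = 0.073). Eif4a1 gave 0.06 ± 0.21 and -0.08 ± 0.20. Eif4a2, the more neuronal relative, was lower in the 3g line (-0.94 ± 0.20) and at 0.05 ± 0.13 in the 16p11.2 line. Of the activators of eIF4A, Eif4b was lower (-1.5 ± 0.21 and -1.78 ± 0.17), and Eif4h gave 0.16 ± 0.17 and 0.13 ± 0.14. Eif4ebp2, the main brain inhibitor of eIF4E, was lower at -1.27 ± 0.19 and -0.80 ± 0.17. Eif4ebp1 had 1 and 3 footprints in all and Eif4ebp3 had 0 and 3, so no ratio is read for either.

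**Figure D2:**
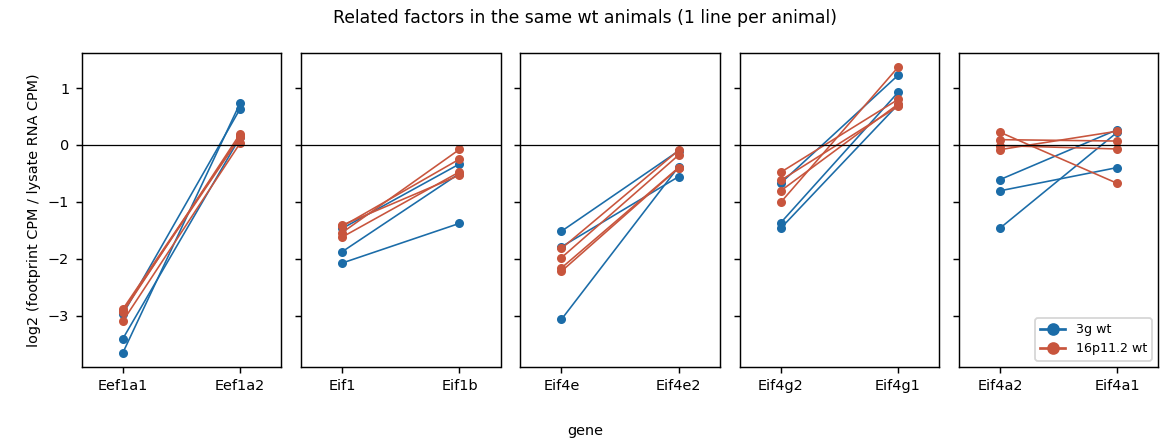
Log2 ratio of footprint CPM to lysate RNA CPM (y axis) for related genes (x axis) in the same wt animals, with 1 line for each of 3 animals of the 3g line (blue) and 4 of the 16p11.2 line (red). Eef1a2, Eif1b, Eif4e2 and Eif4g1 lie above their relatives in all 7 animals, while Eif4a1 and Eif4a2 cross.

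The subunits of eIF3 spanned nearly the whole range. Of 14, 7 were lower in both lines and 1, Eif3i, was higher in both. Eif3e had the lowest log2 values, at -3.13 ± 0.39 and -2.42 ± 0.26, on 10 and 19 footprints in all. Pseudogenes of this gene, listed under its older name Eif3s6, are among those left out and can share its reads, as can those of Eif1 and Eif2s3x. Eif3h (-1.86 ± 0.24 and -1.98 ± 0.21), Eif3f (-1.48 ± 0.22 and -1.54 ± 0.19) and Eif3a (-0.76 ± 0.19 and -0.89 ± 0.17) were lower as well. The call of Eif3a in the 3g line was lost without wt animal 1 or 2.

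Eif3b, Eif3c, Eif3g, Eif3k and Eif3l passed in neither line, and Eif3d was called higher in the 3g line alone (0.96 ± 0.30, against 0.49 ± 0.29 in the 16p11.2 line). Its call was lost without 3g wt animal 1 or 2, with 0.576 to 1.21 when each animal was left out. Eif3i had ratios of 6.71, 2.91 and 3.23 in the 3g animals and 1.59, 2.02, 1.31 and 2.31 in the 16p11.2 animals. Its log2 values were 2.15 ± 0.32 and 0.89 ± 0.25 (edgeR adjusted p = 0.000149 and 0.00545), and the call in the 16p11.2 line was lost without wt animal 4 (0.71, adjusted p = 0.0686). Eif5a, needed at difficult peptide bonds, was at -1.06 ± 0.19 and -0.85 ± 0.15 and its relative Eif5a2 at -1.94 ± 0.23 and -1.44 ± 0.18, all called. Eif6, which keeps the subunits apart, gave 0.64 ± 0.40 and 0.41 ± 0.38.

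Members with a start run lay on both sides of 0. The 3 longest runs, in Eif3f (13 bases), Eif2s3x (12) and Eef1a1 (8), belong to members with mean log2 ratios over the lines of -1.51, -1.79 and -3.13. Eif4g1 and Eif2b5, with runs of 6, stood at 0.93 and 0.75, and Eif1ad, Eif3b and Eif3l, with 5, at 0.00, -0.12 and -0.31. The median was -0.22 for the 8 members with a run and -0.48 for the 39 without one that were tested. Eif1, without a run, stood at -1.64. These are matches of letters at annotated starts only, so a member whose transcripts start elsewhere can be in the wrong group. Members without a promoter entry, such as Eef1g, Eif3e and Eif3h, are in neither group. Whether the motif goes with the ratio was not tested.

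Other genes of cytosolic translation were compared by the same fit: 13 of 35 were lower and 5 higher in the 3g line, with a median of -0.50, and 11 lower and 6 higher in the 16p11.2 line, with a median of -0.22. They include poly(A)-binding proteins, release factors, the Eif2ak kinases and the mTOR pathway. Of 8 mitochondrial translation factors, 1 was lower and 1 higher in the 3g line and 1 lower and 0 higher in the 16p11.2 line, with medians of 0.12 and -0.32.

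The first question of the study's design was whether the deletions change striatal gene expression in each sex. No member was called between del/+ and wt by edgeR at an adjusted p under 0.05 in RNA-seq of either line or sex. An unadjusted p under 0.05 was found for 0 of 62 members in males and 9 of 62 in females of the 3g line, and for 1 of 62 in males and 0 of 61 in females of the 16p11.2 line. Over all genes, in the same order, edgeR called 0%, 0.00526%, 0.106% and 0.144%, and 1.44%, 11%, 5.82% and 4.47% had an unadjusted p under 0.05. DESeq2 called 0 members in each. Without 3g wt male 17 the unadjusted p was under 0.05 for 0 of 62 members (3.03% of all genes) in 3g males. For 16p11.2 males without del/+ male 4 it was so for 0 of 62 (4.02%), and for females without del/+ female 1 for 3 of 62 (6.11%), with 0 called by edgeR each time. In bulk tissue, fewer cells of a type and less RNA per cell cannot be told apart.

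In the males of both lines the members leaned downward. In 3g males 53 of 62 had a log2 fold change below 0, with a median of -0.10 where 50% of all genes were below 0, and in 16p11.2 males it was 48 of 62, with a median of -0.10 and 50.9% of all genes. Both counts depend in part on the libraries named above. Without 3g wt male 17 the count was 40 of 62 and the median -0.02, where 50.7% of all genes were below 0. Leaving out 16p11.2 del/+ male 4 gave 38 of 62 and -0.04, with 50.8% of all genes below 0.

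The same appears library by library. In 3g wt male 17 the median member was 0.21 above the wt mean on the log2 scale, where the other wt males lay at -0.06 to -0.07 and the del/+ males at -0.07 to -0.11. In 16p11.2 del/+ male 4 it was -0.34, where the other del/+ males lay at -0.01 to -0.08 and the wt males at -0.04 to 0.05. In 3g wt male 17 the cortical excitatory neuron markers summed to 930.2 CPM and the oligodendrocyte markers to 9368 CPM, against 36.1 to 306 and 3489 to 5283 CPM in the other wt males. In 16p11.2 del/+ male 4 the oligodendrocyte sum was 4509 CPM, against 8105 to 9628 CPM in the other del/+ males. Across lines, this sum was 6927 to 9098 CPM in 16p11.2 wt males and 4540 to 5853 CPM in 3g del/+ males. The cortical sum was 766 to 1183 CPM over all 16p11.2 del/+ males, male 4 included, and 138 to 355 CPM in 3g del/+ males. The part of cell makeup in these medians was not tested. In females the medians were -0.001 (3g) and -0.015 (16p11.2), and without 16p11.2 del/+ female 1 the latter was 0.004.

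**Figure D3:**
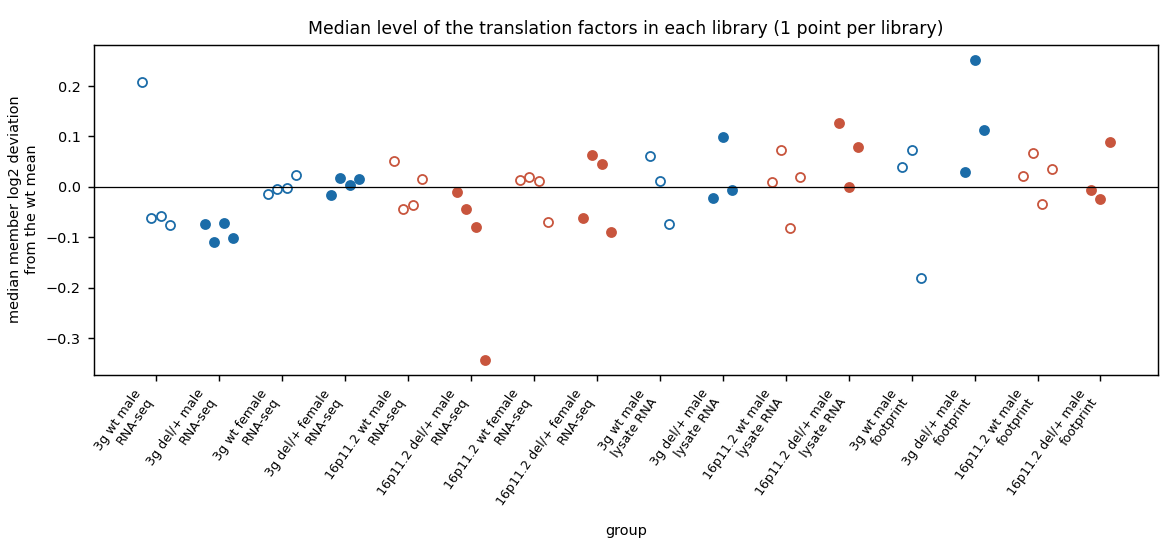
Median log2 deviation of the members from the wt mean of their comparison (y axis), with 1 point for each of 58 libraries by group (x axis). Open points are wt and filled points del/+, blue is the 3g line and red the 16p11.2 line. In male RNA-seq, 3g wt male 17 stands at 0.21 and 16p11.2 del/+ male 4 at -0.34, away from the other libraries of their groups.

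The members whose 4 del/+ values lay on a single side of the 4 wt values were few. In 3g males it was 1 of 62, on the lower side, where 1.02% of all genes lay. Eif4a3 was at 40.4, 39.1, 40.1 and 40.8 CPM in del/+ and 57.9, 43.1, 42.0 and 41.9 CPM in wt, with the highest value in wt male 17. The log2 fold change was -0.20 ± 0.11 (edgeR adjusted p = 0.974) and -0.08 without that library.

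In 3g females it was 8 of 62, 5 higher and 3 lower, where 5.66% of all genes did so. Eif2s3x was at 50.8, 50.1, 52.2 and 49.5 CPM in del/+ and 44.7, 48.3, 47.0 and 46.8 CPM in wt (log2 0.12 ± 0.04, edgeR adjusted p = 0.315). Eef1g was at 172, 171, 166 and 182.5 CPM against 188, 188, 189 and 182.8 CPM (-0.11 ± 0.04, edgeR adjusted p = 0.316). The groups touch in Eef1g, whose lowest wt value is close to the highest del/+ value. Eif3j1 was at 15.1, 16.2, 16.7 and 17 CPM against 14.9, 15, 14.95 and 14.6 CPM (0.13 ± 0.05, edgeR adjusted p = 0.413). Total counts also separate these groups, at 24332636 to 36821127 in del/+ and 42289823 to 65529807 in wt, and their part in the differences was not tested.

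In 16p11.2 males the count was 3 of 62, all lower, where 2.12% of all genes were, and among the females 2 of 61, both lower, where 1.7% were. Eif3d, the eIF3 subunit that can bind caps, is the only member in both. It was at 39, 39.3, 34.5 and 31.8 CPM in del/+ males and 43.9, 41.5, 41.4 and 40.3 CPM in wt males (-0.21 ± 0.10, edgeR adjusted p = 0.742), and -0.15 without del/+ male 4. In females it was at 35.4, 35.8, 35 and 33.7 CPM in del/+ and 37.8, 38.4, 38.2 and 37 CPM in wt (-0.11 ± 0.06, edgeR adjusted p = 0.998). The others were Eif2b2 (-0.20 ± 0.10) and Eif2b5 (-0.17 ± 0.09) in males and Eif2b4 (-0.10 ± 0.06) in females. These are different eIF2B subunits, and no eIF2B subunit was separate in both sexes. The smallest edgeR adjusted p of any member was 0.742 in males and 0.998 in females. Without del/+ male 4, Eif2b2 was at -0.14 and Eif2b5 at -0.11.

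Whether genotype effects differed between the sexes was tested as an interaction. No member was called in either line by edgeR, with 0 of 62 at an unadjusted p under 0.05 in the 3g line and 1 of 62 in the 16p11.2 line. Of all genes 0% were called in both, and 2.69% and 4.33% had an unadjusted p under 0.05. DESeq2 called 0 members in each. The median log2 interaction was 0.097 in the 3g line and 0.023 without wt male 17. For 16p11.2 mice it was 0.088, with 0.035 without del/+ male 4 and 0.109 without del/+ female 1. Without each of these libraries edgeR called 0 members, and 0, 1 and 1 had an unadjusted p under 0.05.

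The lysate RNA and footprints of the other male mice asked whether the deletions change translation. In lysate RNA edgeR called 0 of 61 members in each line, with 2 and 3 at an unadjusted p under 0.05, where 4.92% and 4.41% of all genes had one and 0.0209% and 0.133% were called. DESeq2 called 0 in each. Groups were separate for 5 members in the 3g line and 2 in the 16p11.2 line, and for 9.65% and 5.71% of all genes. Eif1 was the member in which both lines had separate groups. It was at 122, 139 and 125 CPM in 3g del/+ animals 1 to 3 and 143, 140.3 and 139.8 CPM in wt animals, separate by a small margin (-0.13 ± 0.10, edgeR adjusted p = 0.95). In the 16p11.2 line it went the other way, with 171, 144 and 158 CPM in del/+ animals 1 to 3 and 137, 138, 130.1 and 134 CPM in wt animals (0.23 ± 0.10, edgeR adjusted p = 0.99). The difference between the lines was not tested. Eif4e in the 16p11.2 line was at 104, 99.9 and 103.5 CPM against 90.2, 95.3, 85.8 and 89.7 CPM (0.18 ± 0.09, edgeR adjusted p = 0.99). Of the eIF2B subunits in 3g lysate RNA, Eif2b3 gave 0.24 ± 0.21 and Eif2b5 -0.20 ± 0.13, each with separate groups (edgeR adjusted p = 0.952 and 0.949).

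In footprints 41 members could be tested in the 3g line and 33 in the 16p11.2 line, and edgeR and DESeq2 called 0 in each. The unadjusted p was under 0.05 for 5 and 1, where 7.97% and 6.15% of all genes had one and 0.0132% and 0.117% were called by edgeR. Groups were separate for 10 members and 5 members, and for 13.3% and 6.69% of all genes. The 3g del/+ footprint libraries were deeper (527917 to 678130 counts) than the wt ones (342052 to 422918). Eif3i was at 20.2, 35.3 and 55.8 CPM in 3g del/+ animals 1 to 3 and 189.5, 70.2 and 64.9 CPM in wt animals 1 to 3. The groups do not overlap, and wt animal 1, with 66 footprints, is far above the rest. The log2 fold change was -1.51 ± 0.41 (edgeR adjusted p = 0.406), -0.84 without wt animal 1, and with no filter on low counts the call was made (adjusted p = 0.00323). In that animal the endothelial markers (5 of 5 detected) summed to 801 footprint CPM, against 205 to 452 in the other 5 libraries, and the part of this was not tested. In lysate RNA of the same animals Eif3i was at 13.1, 15.7 and 16.9 CPM in del/+ and 17.4, 15.1 and 12.4 CPM in wt, and there the groups overlap.

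Eif2d was also lower in 3g del/+ footprints, at 36, 23 and 27 CPM against 66, 56.7 and 48.0 CPM (-1.01 ± 0.35, edgeR adjusted p = 0.436). In the 16p11.2 line it lay the other way, at 38.6, 47.3 and 47.7 CPM against 33.5, 30.9, 32.8 and 29.1 CPM (0.50 ± 0.34, edgeR adjusted p = 0.898). Neither passed, and the lines were not tested against each other. Eif1b (-0.65 ± 0.36) and Eif3a (0.49 ± 0.30) also had separate groups in 16p11.2 footprints (edgeR adjusted p = 0.8287 and 0.863). Eif1ax was at 119, 73.6 and 77.4 CPM against 57.4, 59.4 and 25.4 CPM in the 3g line (0.90 ± 0.33, edgeR adjusted p = 0.473).

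Translational efficiency, the change of footprints beyond that of lysate RNA, was tested as an interaction of genotype and assay. By edgeR 0 of 62 members were called in the 3g line and 0 of 61 in the 16p11.2 line, as by DESeq2. The unadjusted p was under 0.05 for 8 and 4 members, where 7.67% and 6.24% of all genes had one, and edgeR called 0% and 0.00664% of all genes. In the 3g line del/+ lay wholly above wt in 4 members and wholly below in 3, as in 6.02% and 5.2% of all genes. The 16p11.2 groups were separate for 5 members and for 5.61% of all genes. In the 3g line Eif3i had ratios of 0.957, 1.41 and 2.08 in del/+ and 6.55, 2.86 and 3.24 in wt (-1.49 ± 0.43, edgeR adjusted p = 0.49), and Eif2d 1.78, 1.43 and 1.60 against 3.88, 2.93 and 2.79 (-1.01 ± 0.33, adjusted p = 0.506). Without wt animal 1, Eif3i was at -0.955 (edgeR adjusted p = 0.862). The third with lower ratios in del/+ was Eif3g (-0.52 ± 0.37). Above wt lay Eif3j2, with ratios of 0.559, 0.352 and 0.5245 in del/+ and 0.297, 0.151 and 0.0624 in wt (1.43 ± 0.55, edgeR adjusted p = 0.563). These rest on only 12, 10 and 13 footprints in del/+ and 5, 2 and 1 in wt animals 1 to 3. Without wt animal 1 its value was 2.19. The others above wt were Eif4a2 (0.56 ± 0.24), Eif5a (0.40 ± 0.25) and Eif3j1 (0.86 ± 0.38). Eif3j1 is near-identical to Eif3j2 and their reads may be split, so they need not be separate cases. None of these folds passed after adjustment by edgeR.

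Of the 5 members with separate groups among 16p11.2 mice, Eif1b, Eef1a1, Eif4a2 and Eef2 had lower ratios in del/+ and Eif3a higher ones. Eif4a2 was at 0.685, 0.674 and 0.7003 in del/+ and 1.01, 0.953, 1.11 and 0.9 in wt (-0.53 ± 0.21, edgeR adjusted p = 0.764). Eef1a1 was at 0.0641, 0.106 and 0.0737 against 0.126, 0.112, 0.129 and 0.124 (-0.61 ± 0.25, edgeR adjusted p = 0.764). Eif1b was at 0.289, 0.539 and 0.496 against 0.656, 0.692, 0.903 and 0.801 (-0.82 ± 0.31, edgeR adjusted p = 0.764). Without del/+ animal 1 the log2 value was -0.51 for Eif1b and -0.39 for Eef1a1. Eef2 gave -0.33 ± 0.23 and Eif3a 0.37 ± 0.27 (edgeR adjusted p = 0.888 for both). For Eif4a2 the 3g line gave 0.56 ± 0.24 (edgeR adjusted p = 0.61), and the difference between the lines was not tested. Among the other genes of cytosolic translation edgeR called 0 of 35 in either line, with 3 and 0 at an unadjusted p under 0.05 and 0 by DESeq2.

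Sex was compared in wt RNA-seq, where Eif2s3x has a known footing: it lies on the X chromosome, has a Y-linked copy, and escapes X inactivation in mice. In the 3g line Eif2s3x was at 44.6, 48.3, 47 and 46.8 CPM in wt females and 37.3, 32.3, 31.2 and 30.5 CPM in wt males. In the 16p11.2 line it was at 58.4, 63.5, 61.5 and 56.6 CPM in females and 37, 38.2, 37.4 and 48.3 CPM in males. The sexes were separate in both lines. The log2 difference, female minus male, was 0.51 ± 0.07 and 0.58 ± 0.09, and an exact permutation test over 4 against 4 libraries gave p = 0.0286 in each, the smallest it can give (2-sided).

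Adjusted over all genes, edgeR did not call it (adjusted p = 0.136 and 0.174), while DESeq2 did (5.82e-06 and 0.000158), as the only member. The edgeR p fell to 0.000323 without 3g wt male 17, and to 0.0019 without 16p11.2 wt male 4, the male at 48.3 CPM. Of the 62 members edgeR called 0 in both lines, with 2 and 2 at an unadjusted p under 0.05, where 2.85% and 5% of all genes had one. Over all genes edgeR called 0.0308% and 0.0336%, and DESeq2 0.17% and 0.241%. In 16p11.2 del/+ female 1, the library with Ddx3y, Eif2s3x was at 40.1 CPM, where the other del/+ females had 63.7, 68.1 and 58.3 CPM.

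**Figure D4:**
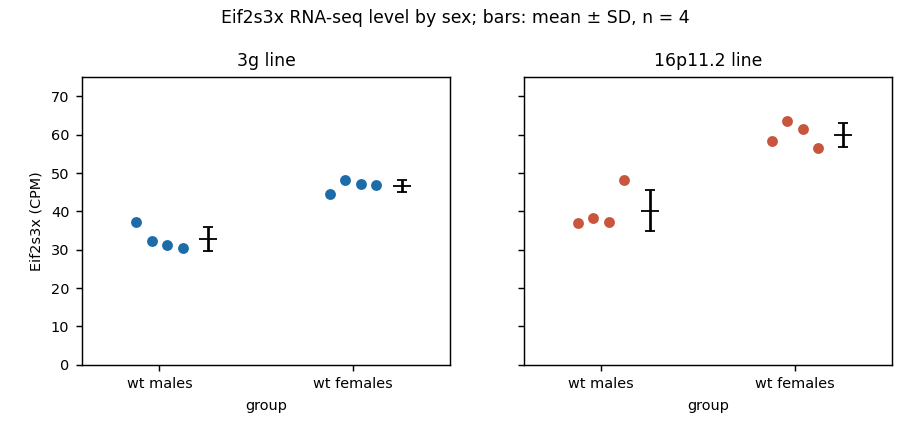
Eif2s3x RNA-seq level in CPM (y axis) in wt males and wt females (x axis) of each line, with 1 point per library and the mean ± SD of 4 beside it. All female points lie above all male points in both lines, and 16p11.2 wt male 4, at 48.3 CPM, lies between.

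The eIF3 subunit eIF3j, which sits at the decoding site, is encoded in mouse by 2 near-identical genes, Eif3j1 and Eif3j2, whose reads may be split between them by the counting. Their summed RNA-seq level was steady, at 18.2 to 23.6 CPM in the 3g line and 20.7 to 27.0 CPM in the 16p11.2 line. The split was not. Eif3j1 took 72.0% to 77.0% of the sum in 15 of the 16 libraries of the 3g line and 45.4% in wt male 17. In the 16p11.2 line it took 43.4% to 49.7% in 10 libraries and 70.9% to 77.0% in 6, with 0 libraries between.

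By label, the 6 high libraries of the 16p11.2 line were wt male 4 (76.2%), del/+ males 2, 3 and 4 (75%, 75.4% and 70.9%) and del/+ females 2 and 4 (77.0% and 75.8%). The low libraries were wt males 1, 2 and 3 (46.1%, 43.4% and 49.05%), the 4 wt females (43.8% to 49.7%), del/+ male 1 (46.2%) and del/+ females 1 and 3 (44.8% and 45.4%). High shares were thus found in 5 of 8 del/+ and 1 of 8 wt libraries, a count with no test. It includes del/+ male 4, a high library that scored 0.202 on the line axis above, nearer the 3g line. It also includes del/+ female 1, a low library that expressed Ddx3y. In 16p11.2 females edgeR gave a log2 fold change of 0.47 ± 0.21 for Eif3j1 and -0.45 ± 0.24 for Eif3j2 (adjusted p = 0.998 for both). In males it gave 0.32 ± 0.23 and -0.41 ± 0.32 (adjusted p = 0.758 and 0.769). These fits include del/+ female 1 and del/+ male 4. In lysate RNA, aligned by another route, all 13 libraries had 45.2% to 57.1%. Which copy a read came from was not tested.

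**Figure D5:**
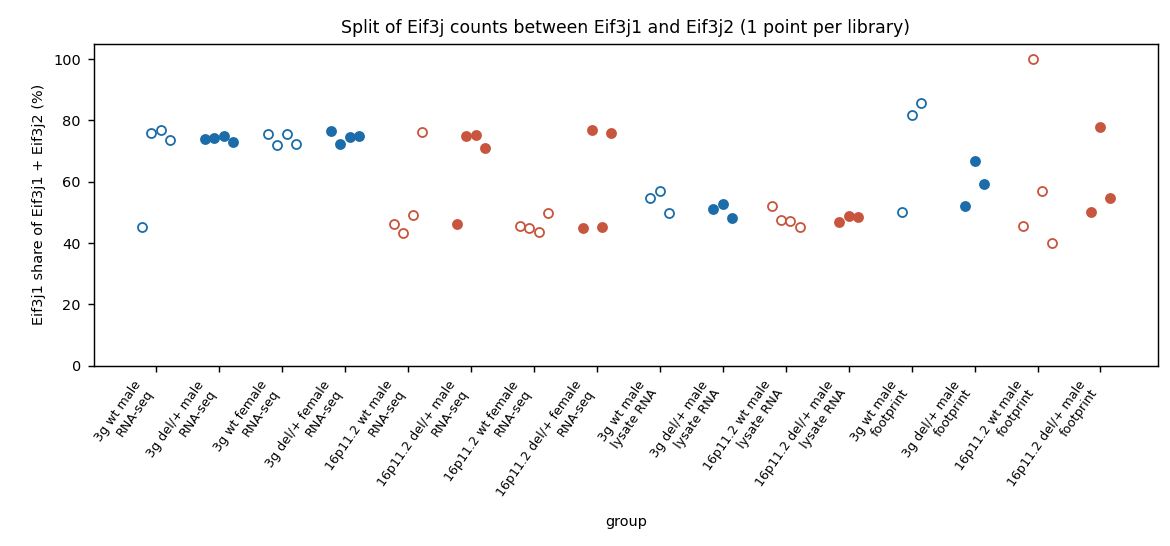
Share of Eif3j1 in the sum of Eif3j1 and Eif3j2 CPM, in percent (y axis), with 1 point for each of 58 libraries by group (x axis). Open points are wt and filled points del/+, blue is the 3g line and red the 16p11.2 line. RNA-seq libraries lie near 45% or near 75%, lysate RNA libraries between 45.2% and 57.1%, and footprint libraries, with few counts, spread widely.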

How the data were processed

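RNA-seq, lysate RNA and ribosome footprint libraries of mouse striatum were compared. The authors deposited whole-number counts per gene without normalization. Their RNA-seq counts were made with bcbio-nextgen, and the submitters' notes name HTSeq and mm10, with Bowtie2 and mm39 for the lysate and footprint libraries. The gene region counted there is not given in the sources used here. All columns were matched to samples by their labels.

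Counts were filtered with filterByExpr, scaled with TMM and tested with edgeR 4.0.16 (glmQLFit and glmQLFTest, R 4.3.3, limma 3.58.1) over all genes, with Benjamini-Hochberg adjustment and a threshold of 0.05. CPM use TMM-scaled library sizes of the comparison, except for marker, targeted gene and Eif3j1 shares. Footprints per lysate RNA were tested as footprint against lysate RNA, and translational efficiency as the interaction of genotype and assay. Errors of log2 values are standard errors. The fits were tested on simulated data. Alternatives were DESeq2 1.42.0, RLE scaling, no filter, all 16 libraries of a line in 1 fit, all animals with genotype as a term, replicate or animal blocks, and leaving out each library. Animals are separate mice, so p-values of genotype and sex within an assay measure their spread. The main fits of footprints per lysate RNA and of translational efficiency did not pair the libraries of an animal. Their errors and p-values treat those libraries as independent.

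The members and lists were chosen with earlier results of these data known. Named are members called in a comparison, up to 3 with separate groups and the largest change in each, the 5 highest and lowest ratios, a set of core factors, and close relatives of these. Other members were named after their values were seen. Levels were not compared between genes, as no transcript lengths were used.

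Footprint and lysate RNA libraries of an animal share 1 lysate, so animal pairs them, which only the alternative fits with animal as a block used. The replicate numbers of the 16p11.2 RNA-seq libraries do not pair them.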

Additional observations from a re-analysis of the deposited data

Results flagged for a closer look

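Among 85 groups of 4 to 10 samples examined, 9 held a sample whose distance from its nearest neighbour was past Dixon's critical value for the group's range, and chance gives about 1 in 20 groups. Of these, 3 come from 3g wt male 17: the Eif3j1 share was 45.35% (73.63% to 76.95% in the other wt males), Eif4a3 was at 57.94 CPM (41.85 to 43.12 CPM) and the median member deviated by 0.2083 on the log2 scale (-0.0745 to -0.0584).

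In 16p11.2 RNA-seq, del/+ male 1 had an Eif3j1 share of 46.23% (70.92% to 75.36% in the other del/+ males), wt male 4 had Eif2s3x at 48.28 CPM (36.96 to 38.2 CPM in the other wt males), and the median member of wt female 4 deviated by -0.0691 (0.0127 to 0.0206 in the other wt females). In 3g wt female 39 Eef1g was at 182.8 CPM (187.9 to 188.7 CPM). In footprints per lysate RNA, Eif2s1 had a ratio of 0.1429 in 16p11.2 wt animal 1 (0.4586 to 0.5058 in the others) and Eif4g1 one of 2.578 in wt animal 2 (1.599 to 1.741).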

How the results depend on the processing

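The count of members called by edgeR was 0 in every genotype, interaction and sex comparison, and it moved in 3 of them. With no filter on low counts it was 1 for 3g footprints (Eif3i) and 1 for sex in the 16p11.2 line (Eif2s3x), and with DESeq2 it was 1 for sex in each line. Leaving out each library gave 0 to 1 for sex in both lines, with 1 without 3g wt male 17 and without 16p11.2 wt male 4. For footprints per lysate RNA, leaving out each animal gave 29 to 32 members in the 3g line and 32 to 33 in the 16p11.2 line, against 35 in each.

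Some ratios near 0 or on few footprints changed sign. Without the filter, Eif4a1 was at -0.029 in the 3g line and Eif4a2 at -0.056 in the 16p11.2 line. With all animals and genotype as a term, Eif4ebp1 was at 0.605, Eif4a2 at -0.229 and Eef1a2 at -0.031 in the 16p11.2 line. Leaving out each animal gave -0.084 to 0.248 for Eif4a1 and -0.399 to 0.033 for Eef1d in the 3g line. In the 16p11.2 line it gave -0.157 to 0.772 for Eif4ebp3, -1.797 to 0.143 for Eif4ebp1, -0.19 to 0.079 for Eif4a1 and 0 to 0.116 for Eif4a2. The cause was not tested. Among the fold changes of named genes under the other settings, 404 kept their direction and side of the threshold, 5 changed sign, 7 newly passed and 3 no longer passed. With a library left out 415 kept both, 7 changed sign, 2 newly passed and 15 no longer passed.

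The replicate numbers of the 16p11.2 RNA-seq libraries share only a number: same-numbered libraries correlated at -0.219 to 0.099 in males and -0.052 to 0.118 in females, and with the number as a block 0 members were called by genotype or sex (Eif2s3x 0.585, edgeR adjusted p = 0.534). With animal as a block, pairing the libraries of a lysate, 32 and 35 members were called for footprints per lysate RNA and 0 for translational efficiency.

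Footprint depth limits single members most, since 27 of 63 had a median under 10 footprints.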
